A study of Mus musculus with 6 samples.

Results

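The sarcomeric myosin heavy chains are the motor proteins of the muscle thick filament, and 8 genes of this family, Myh1, Myh2, Myh3, Myh4, Myh6, Myh7, Myh7b and Myh8, were taken by gene symbol from a table of 49592 genes. Sequencing of poly(A)-enriched mRNA was done on C2C12, a mouse muscle precursor line whose cells fuse into myotubes in low serum. All cultures were grown in DMEM with nonessential amino acids and 10% FBS and differentiated for 3 days in 2% HS. The TWEAK group (3 libraries) then received 10 ng/ml of the TNF-family cytokine TWEAK for 12 h, and the untreated group (3 libraries) did not. Libraries are numbered by trial from 1 to 3 in both groups. Nothing in the labels says that trials were separate cultures, so each p-value reflects only how these libraries scatter, which may be technical. The study asked which transcripts change when TWEAK acts on young myotubes, in connection with their fusion.

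Each heavy chain carries a head, which binds actin and hydrolyses ATP, and a tail that packs into the thick filament. Muscle changes the heavy chain it makes as it matures. Embryonic Myh3 and perinatal Myh8 come first, and adult fibres then rely on a slow form (Myh7) or on the fast forms Myh2 (type IIa), Myh1 (type IIx) and Myh4 (type IIb). Myh6 encodes the alpha heavy chain of the heart, and Myh7b an ancient slow-type chain of restricted expression.

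The heavy chain genes lie at 3 places in the mouse genome. In GRCm39, the build of the deposited table, Myh3 (chr11:66969126-66993117), Myh2 (chr11:67061853-67088343), Myh1 (chr11:67090878-67115401), Myh4 (chr11:67128855-67151272) and Myh8 (chr11:67167950-67199460) follow each other on chromosome 11. With Myh13, the extraocular form, they span 293 kb. Myh6 (chr14:55179378-55204384) and Myh7 (chr14:55208141-55232083) are neighbours on chromosome 14, and Myh7b (chr2:155453132-155476227) stands alone on chromosome 2. The table types all 8 genes as protein coding. Their identifiers, in the order just given, are ENSMUSG00000020908.15, ENSMUSG00000033196.18, ENSMUSG00000056328.15, ENSMUSG00000057003.13, ENSMUSG00000055775.17, ENSMUSG00000040752.17, ENSMUSG00000053093.17 and ENSMUSG00000074652.4.

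The 4 genes of the cluster from Myh2 to Myh8 share a stretch of sequence ahead of their start sites, shown here because its downstream end is the longest run that these neighbouring promoters have in common. All 8 members fell with TWEAK, so the fall does not set these 4 apart. The stretch was read from the 250 bases before each RefSeq start in GRCm38.p6, at chr11:67277020-67277083 for Myh8, chr11:67170854-67170915 for Myh2, chr11:67199886-67199955 for Myh1 and chr11:67237625-67237667 for Myh4, all on the plus strand. Capitals mark the runs that all 4 windows hold letter for letter, TCAAATTAT at the upstream end and TTCTAATTATATCC at the downstream end.
Myh8: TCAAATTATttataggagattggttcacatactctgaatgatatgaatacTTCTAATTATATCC
Myh2: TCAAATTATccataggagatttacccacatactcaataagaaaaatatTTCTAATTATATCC
Myh1: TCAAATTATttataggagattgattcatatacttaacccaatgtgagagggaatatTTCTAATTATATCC
Myh4: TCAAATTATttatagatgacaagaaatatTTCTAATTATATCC
The downstream run ended 41 bases before the start in Myh8, 112 in Myh2, 147 in Myh1 and 145 in Myh4. Searched on both strands, TTCTAATTATATCC was found in 4 of 32851 RefSeq promoters of that length (0.0122%), and those 4 were these genes. TCAAATTAT was found in 0.174% of all promoters. Both runs were picked from these windows, so their rarity is a description. The windows of Myh3, Myh6, Myh7 and Myh7b did not hold the downstream run.

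Further motifs in the same windows separated the members less clearly. A match to the MEF2 site, bound by the Mef2 factors of differentiating muscle, lay in the windows of Myh8, Myh1 and Myh4 as TTATTTATAG, against 2.92% of all promoters, and overlapped the end of the upstream run. The TATA box TATAAA (12.4% of all promoters) was found about 30 bases before the start in Myh3, Myh1 and Myh4, at bases -29 to -24, -32 to -27 and -31 to -26. The single TATA match of Myh8, the other match of Myh1 and 1 of the 3 in Myh4 fell inside the MEF2 match on the other strand. The E-box CANNTG, the site of the MyoD family, occurred in the windows of Myh3, Myh8, Myh4, Myh7, Myh7b and Myh6, and in 66.2% of all promoters. MCAT, the Tead site CATTCC, occurred in the windows of Myh1, Myh4, Myh7 and Myh6, and in 12.6% of all. These matches describe letters in a window and not binding.

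TWEAK-treated libraries held less heavy chain RNA in every trial. Levels are given as FPKM, fragments counted per length of gene model and sequencing depth, as the authors scaled them. The 8 members together summed to 2001, 2097 and 1811 FPKM in untreated libraries 1, 2 and 3 and to 1250, 1056 and 1250 FPKM in TWEAK libraries 1, 2 and 3. The groups did not overlap, and the highest TWEAK sum lay below the lowest untreated sum. Mean sums were 1970 ± 146 FPKM untreated and 1185 ± 112 FPKM with TWEAK (SD, n = 3 each), a 1.66-fold difference (log2 difference -0.73, exact two-sided permutation p = 0.1, the smallest that 3 against 3 allows). As a share of all FPKM, the family made up 0.511% of the untreated and 0.304% of the TWEAK libraries. Fewer cells of a type and less RNA per cell cannot be told apart in bulk RNA.

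All 8 members were tested, and 8 of 8 were called lower with TWEAK by limma on log2(FPKM + 1) at an adjusted p of 0.05, against 6.1% of all 12770 tested genes (15.1% were called in either direction). The authors' deposited table had 8 of 8 lower with an adjusted p under 0.05, as were 9.38% of its genes with such a value. That fit seems to hold more libraries than these 6, since its mean normalized count was above 0 for 2337 genes at 0 in all 6, so its p-values do not rest on these libraries alone. In all 8 the groups did not overlap, against 15.9% of tested genes that were lower without overlap. Each member was also lower with TWEAK within each of the 3 trials. The median log2 fold change was -0.91 over the members and 0.01 over all tested genes. Of all tested genes, 2.22% had a log2 fold change at or below that of Myh1, the member that fell least. With the trial as a replicate block all 8 were called as well, against 12.5% of tested genes called lower by that fit. Without the filter on low values, which brings 26302 genes into the limma fit, 4 of the 8 calls were lost, with adjusted p of 0.0619 for Myh3, 0.058 for Myh2, 0.0615 for Myh1 and 0.0991 for Myh4.

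**Figure D1:**
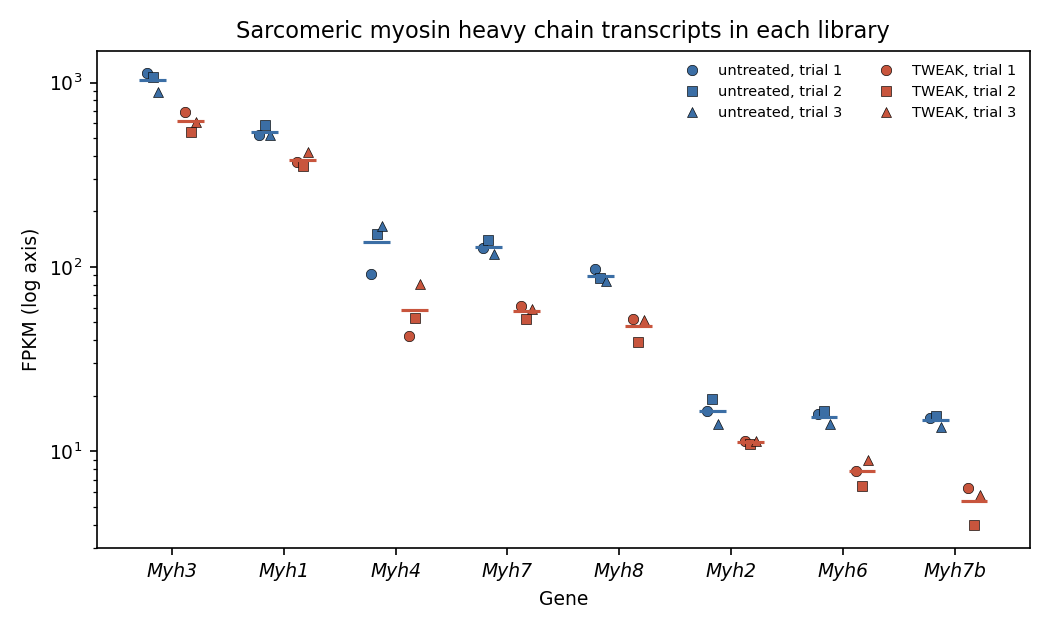
Level of each heavy chain transcript in each library, as FPKM on a log axis, by gene in order of the untreated mean; points are libraries (shape marks the trial), short lines are group means, blue is untreated and red is TWEAK. For all 8 genes the 3 TWEAK points lie below the 3 untreated points, and levels run from 1121 FPKM for Myh3 in untreated library 1 to 3.97 FPKM for Myh7b in TWEAK library 2.

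The developmental chains were led by embryonic Myh3, the most abundant member. Myh3 was at 1121, 1077 and 885 FPKM in untreated libraries 1, 2 and 3 and at 696, 537 and 613 FPKM in the TWEAK libraries. The lowest untreated value, from trial 3, stood above the highest TWEAK value, from trial 1. The means were 1028 ± 126 FPKM and 615 ± 79.5 FPKM (SD, n = 3 each), and Myh3 fell 1.67-fold (log2 fold change -0.74, SE 0.13, limma adjusted p = 0.00615). By mean FPKM Myh3 was the 27th ranked gene of the untreated and the 59th of the TWEAK libraries.

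Perinatal Myh8, the chain that follows Myh3 around birth, was expressed at a lower level. It was at 96.8, 87.1 and 83.7 FPKM untreated and at 52.5, 39.0 and 51.5 FPKM with TWEAK. All 3 TWEAK libraries lay below the untreated range. Means were 89.2 ± 6.80 and 47.7 ± 7.55 FPKM (SD, n = 3 each), a 1.87-fold fall (log2 fold change -0.90, SE 0.11, limma adjusted p = 0.00134).

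Among the fast chains, Myh1 dominated. Myh1 was at 518, 590 and 517 FPKM untreated and at 373, 354 and 419 FPKM with TWEAK. The groups were apart, with trial 2 the widest at 1.67-fold and trial 3 the narrowest at 1.23-fold. Means were 542 ± 42.3 and 382 ± 33.2 FPKM (SD, n = 3 each), a 1.42-fold fall (log2 fold change -0.50 with SE 0.10, limma adjusted p = 0.00906), the least of the 8.

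Myh2, the chain of oxidative fast fibres, was at 16.5, 19.2 and 14.1 FPKM untreated and at 11.3, 10.95 and 11.3 FPKM with TWEAK. The 3 TWEAK values were nearly alike, and the untreated values spread by trial. The means of 16.6 ± 2.57 and 11.2 ± 0.212 FPKM (SD, n = 3 each) gave a 1.49-fold fall (log2 fold change -0.52, SE 0.10, limma adjusted p = 0.00959).

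Myh4, the chain of the fastest glycolytic fibres, varied most between trials. It was at 91.0, 151 and 166 FPKM untreated and at 42.1, 52.9 and 80.8 FPKM with TWEAK. Trial 3 gave the highest and trial 1 the lowest value in both groups, and untreated library 1 lay only slightly above TWEAK library 3. Means were 136 ± 39.5 and 58.6 ± 19.98 FPKM (SD, n = 3 each), a 2.32-fold fall (log2 fold change -1.20, SE 0.26, limma adjusted p = 0.0143). Within trials the fold was 2.16, 2.85 and 2.05, and the fit with the trial as a block gave a limma adjusted p of 4.4e-07. Without that block, its call was lost when TWEAK library 2 (limma adjusted p = 0.0523), untreated library 2 (0.068) or untreated library 3 (0.0536) was left out.

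Both slow-type chains fell more than 2-fold. Myh7, the slow and beta-cardiac chain, was at 127, 140 and 118 FPKM untreated and at 61.4, 52.2 and 59.0 FPKM with TWEAK. The groups lay far apart, with within-trial folds of 2.07, 2.69 and 2.00. Means were 128 ± 11.1 and 57.5 ± 4.81 FPKM (SD, n = 3 each), a 2.23-fold fall (log2 fold change -1.14 with SE 0.09, limma adjusted p = 8.75e-05), the smallest adjusted p of the 8.

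Myh7b had the lowest mean of the 8 in both groups and the largest fall. It was at 15.2, 15.4 and 13.6 FPKM untreated and at 6.32, 3.97 and 5.78 FPKM with TWEAK. TWEAK library 2 was the lowest, and trial 2 had the widest fold, 3.89. Means were 14.7 ± 1.01 and 5.36 ± 1.23 FPKM (SD, n = 3 each), a 2.75-fold fall (log2 fold change -1.33, SE 0.13, limma adjusted p = 0.000394). These values rest on 851 to 3393 recovered reads per library, whereas those of Myh3 rest on 110232 to 223724.

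Alpha-cardiac Myh6 was at 15.8, 16.4 and 14.0 FPKM untreated and at 7.81, 6.51 and 9.00 FPKM with TWEAK. Again the groups were apart, and trial 3 was the narrowest pair at 1.56-fold. Means were 15.4 ± 1.26 and 7.77 ± 1.24 FPKM (SD, n = 3 each), a 1.99-fold fall (log2 fold change -0.91, SE 0.11, limma adjusted p = 0.000927). Of 7 markers of heart muscle cells, 3 reached the filter and 1 was called lower, against 6.1% of all tested genes. That marker, Nppb, was at 0.862 ± 0.257 FPKM untreated and 0.341 ± 0.108 FPKM with TWEAK (SD, n = 3 each, limma adjusted p = 0.0317). The Nppb call was lost without TWEAK library 2 (limma adjusted p = 0.113), TWEAK library 3 (0.074), untreated library 1 (0.108) or untreated library 2 (0.113), and without the filter on low values (0.0996). Gata4 was at 4.46 and 3.63 FPKM (limma adjusted p = 0.166) and Tnni3 at 2.77 and 2.42 FPKM (limma adjusted p = 0.483), untreated and with TWEAK. With the trial as a replicate block 2 of the 3 were called lower, Nppb (limma adjusted p = 0.00381) and Gata4 (0.047). That fit called 12.5% of all tested genes lower. Below the filter, Nkx2-5 was at 0.455 and 0.456 FPKM, Ryr2 at 0.00229 and 0.000665 FPKM, Myl7 was listed at 0 in all untreated libraries and Nppa at 0 in all TWEAK libraries. The part of these markers in the Myh6 difference was not tested. The 7 summed to 6.85 to 9.63 FPKM untreated and 6.49 to 7.38 FPKM with TWEAK.

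**Figure D2:**
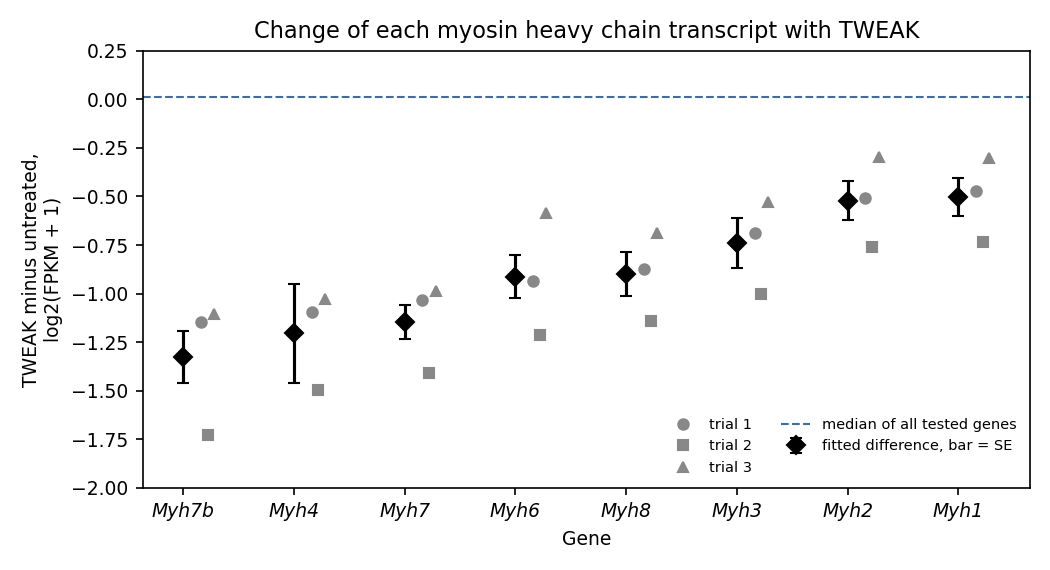
Change of each heavy chain transcript with TWEAK, as the treated minus the untreated log2(FPKM + 1); diamonds are fitted differences with their SE, grey symbols are the differences within trials, and the dashed line is the median of all tested genes (0.01). The fitted differences run from -1.33 for Myh7b to -0.50 for Myh1, and trial 2 has the lowest point for every gene.

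The order of the members by level changed little. In the untreated libraries Myh3 came first and Myh1 second, each apart from the next. Myh4 and Myh7 followed and overlapped each other. Myh8, next in order, overlapped Myh4 but not Myh7. The last 3, Myh2 at 16.6 FPKM, Myh6 at 15.4 FPKM and Myh7b at 14.7 FPKM, overlapped as well. With TWEAK the order of the means was the same, and Myh4, Myh7 and Myh8 all overlapped. The libraries of Myh2, Myh6 and Myh7b, at means of 11.2, 7.77 and 5.36 FPKM, no longer overlapped each other. In the untreated libraries these 3 genes ranked 4026th, 4274th and 4441st among all genes by mean FPKM, and with TWEAK 5450th, 6734th and 7968th.

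The composition of the pool was compared as the share of each class in the summed FPKM of a library, which does not depend on how much heavy chain RNA a library held. Embryonic Myh3 made up 56.0%, 51.4% and 48.9% of the family in untreated libraries 1, 2 and 3 and 55.7%, 50.8% and 49.1% with TWEAK. Libraries of the same trial were closer to each other than libraries of the same group, and the groups overlapped. The mean share was 52.1% ± 3.63 untreated and 51.8% ± 3.40 with TWEAK (SD, n = 3 each, exact permutation p = 0.8).

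The slow class, Myh7 with Myh7b, took 7.10%, 7.42% and 7.27% of the pool in untreated libraries and 5.42%, 5.31% and 5.19% in TWEAK libraries. These groups did not overlap. The mean share was 7.27% ± 0.159 untreated and 5.31% ± 0.118 with TWEAK (SD, n = 3 each), a difference of -1.96 percentage points (exact permutation p = 0.1, the smallest possible, 0.25 after Benjamini-Hochberg adjustment over the 5 classes). Both slow genes had lower shares without overlap, Myh7 at 6.52% untreated against 4.86% with TWEAK and Myh7b at 0.748% against 0.448%.

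Alpha-cardiac Myh6 held 0.783% ± 0.00878 of the pool untreated and 0.654% ± 0.0576 with TWEAK (SD, n = 3 each), also without overlap (exact permutation p = 0.1, adjusted 0.25). Perinatal Myh8 held 4.54% ± 0.350 and 4.004% ± 0.276 (SD, n = 3 each), lower in 3 of 3 trials but with overlapping groups (exact permutation p = 0.2, adjusted 0.333).

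The fast class held 31.2%, 36.3% and 38.5% of the untreated and 34.1%, 39.6% and 40.9% of the TWEAK libraries. It was higher with TWEAK in 3 of 3 trials, and the groups overlapped (means 35.3% ± 3.71 and 38.2% ± 3.596, SD, n = 3 each, exact permutation p = 0.4, adjusted 0.5). The difference of 2.86 percentage points was 4.91 without TWEAK library 1, 1.52 without TWEAK library 3, 0.82 without untreated library 1 and 4.43 without untreated library 3. The fast genes differed among themselves. The share of Myh1 was higher with TWEAK without overlap, at 32.3% ± 2.13 against 27.5% ± 1.45 (SD, n = 3 each). That of Myh4 was 4.95% ± 1.55 with TWEAK against 6.97% ± 2.31 (SD, n = 3 each), with overlapping groups, and was lower in 3 of 3 trials. It was 4.55%, 7.19% and 9.15% in untreated libraries 1, 2 and 3 and 3.37%, 5.01% and 6.47% in the TWEAK libraries.

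**Figure D3:**
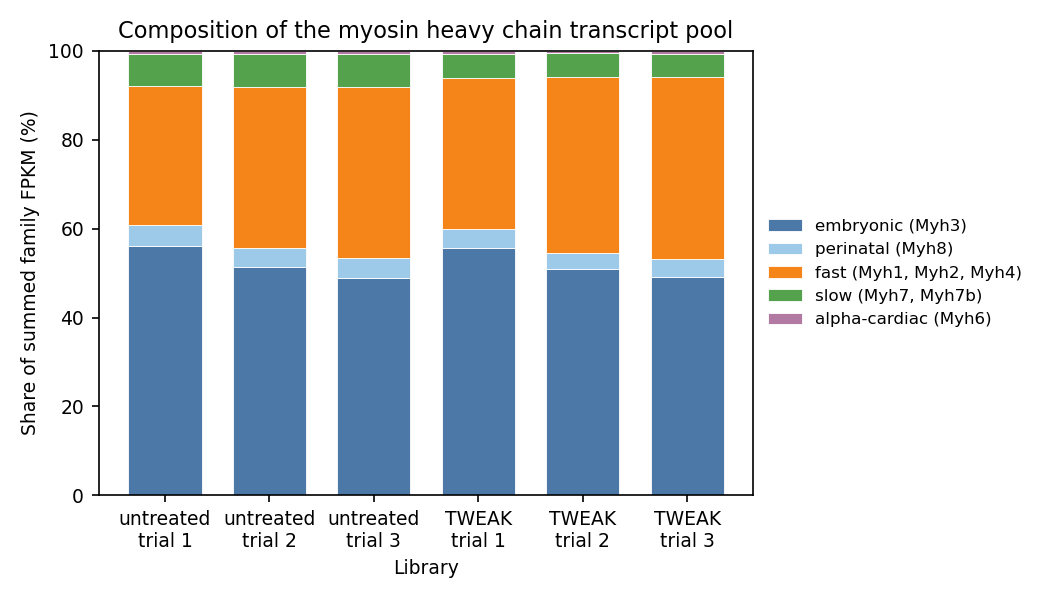
Share of each myosin heavy chain class in the summed FPKM of the 8 genes, in percent, as 1 stacked bar per library. The green slow class measures 7.10% to 7.42% in the untreated bars and 5.19% to 5.42% in the TWEAK bars, while the embryonic class follows the trial, from 56.0% and 55.7% in trial 1 to 48.9% and 49.1% in trial 3.

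The same comparison was made as a ratio to embryonic Myh3 within each library. The log2 ratio of slow to embryonic was -2.98, -2.79 and -2.75 in untreated libraries 1, 2 and 3 and -3.36, -3.26 and -3.24 in TWEAK libraries. It was lower in every trial, by differences of -0.38, -0.47 and -0.49, and the groups did not overlap (mean difference -0.45, exact permutation p = 0.1, adjusted 0.3 over the 3 ratios). The perinatal to embryonic ratio differed by -0.17 (exact permutation p = 0.2, adjusted 0.3), with overlapping groups and within-trial differences of -0.20, -0.16 and -0.17. The fast to embryonic ratio differed by 0.12 (exact permutation p = 0.6), with overlapping groups and within-trial differences of 0.14, 0.14 and 0.08. Each of the 3 ratios thus moved in the same direction in 3 of 3 trials, and the exact paired test gave p = 0.25 for each, the smallest that 3 pairs allow.

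Along the chromosome 11 cluster, level and change did not follow the order of the genes. Myh3 and Myh1, the most abundant, lie 122 kb apart by their starts, with Myh2 between them at 16.6 FPKM in untreated libraries. The adjacent fast genes Myh1 and Myh4 had log2 fold changes of -0.50 and -1.20. Beyond Myh8, Myh13 was at 0.0704 FPKM untreated and 0.0946 FPKM with TWEAK, below the filter. A long noncoding gene that overlaps Myh1, Myhas, was at 0.455 FPKM untreated and 0.477 FPKM with TWEAK. On the other side of the family, Trpc4ap, which overlaps the end of Myh7b, was at 40.5 and 40.4 FPKM (limma adjusted p = 0.995), as Myh7b fell. The use of strand in counting is not given here, so reads of overlapping genes cannot be told apart.

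**Figure D4:**
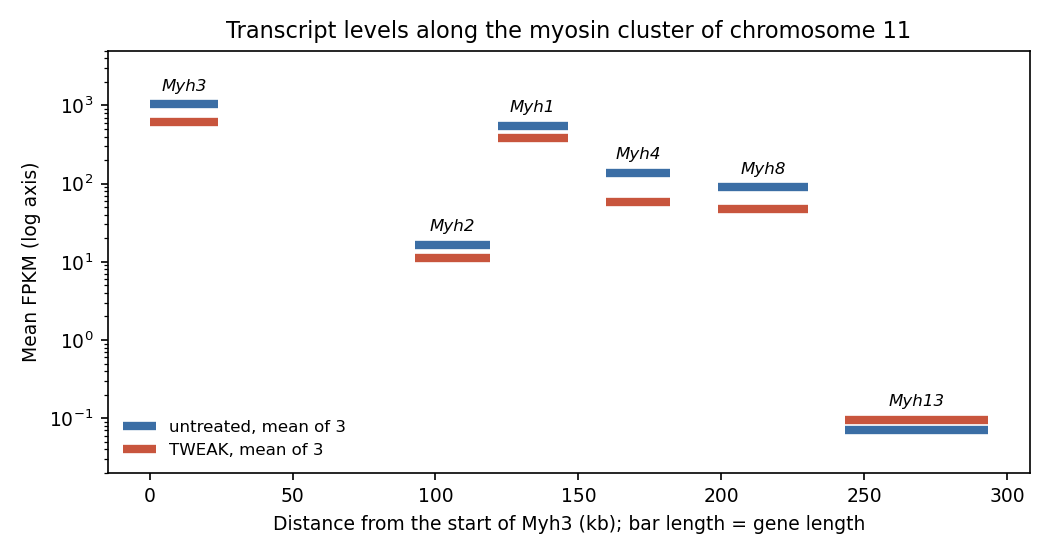
Mean level of the heavy chain genes of the chromosome 11 cluster, as FPKM on a log axis, against distance from the start of Myh3 in kb; each bar spans a gene, blue is the mean of 3 untreated and red that of 3 TWEAK libraries. The red bar lies below the blue bar for Myh3, Myh2, Myh1, Myh4 and Myh8, with the widest gap at Myh4 (136 and 58.6 FPKM), and Myh13 lies under 0.1 FPKM in both groups.

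The members are close copies, which limits how far reads can be assigned to each. Aligned over their transcripts (GENCODE M21, GRCm38), Myh2 and Myh1 were identical at 89.6% of bases, Myh7 and Myh6 at 89.2% and Myh1 and Myh4 at 89.0%, whereas Myh7b matched the others at 67.1% to 70.7%. Of all windows of 100 bases, 11.4% in Myh6, 11.2% in Myh7, 9.46% in Myh1, 9.17% in Myh2, 5.17% in Myh8 and 3.85% in Myh4 occurred letter for letter in another member. In Myh3 and Myh7b this share was 0%. For windows of 50 bases it was 26.7% in Myh2, 26.1% in Myh1, 22.6% in Myh6, 22.2% in Myh7, 19.9% in Myh8, 18.6% in Myh4, 3.66% in Myh3 and 0% in Myh7b. Neither read length nor the treatment of reads with several matches is given, so the separate values of the near-identical pairs are uncertain.

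Of the other myosin II heavy chains, which serve nonmuscle and smooth muscle cells or special muscles, 3 of 6 were tested. Limma at adjusted p 0.05 called 0 of the 3 in either direction, against 15.1% of all tested genes. So few genes cannot set this count apart from that share. At an unadjusted p under 0.05 limma had 1 of the 3 lower, and limma-voom on recovered reads called 1 lower, in both cases Myh14. Of all 12770 tested genes limma-voom called 908 lower. Myh14 was at 0.826 ± 0.126 FPKM untreated and 0.545 ± 0.109 FPKM with TWEAK (SD, n = 3 each, limma adjusted p = 0.127). Its groups did not overlap, with within-trial folds of 1.43, 2.21 and 1.12. This 1.52-fold fall was wider than those of Myh1 (1.42) and Myh2 (1.49), at a level where log2(FPKM + 1) understates change. With the trial as a replicate block 1 was called lower, Myh10 (limma adjusted p = 0.0117), against 12.5% of tested genes. Nonmuscle Myh9 was at 203 ± 31.0 FPKM untreated and 219 ± 31.9 FPKM with TWEAK (SD, n = 3 each, limma adjusted p = 0.638), and Myh10 at 15.2 ± 1.94 and 12.7 ± 1.78 FPKM (SD, n = 3 each, limma adjusted p = 0.2). Myh11, the smooth muscle chain, was near 0.

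The light chains, small subunits that wrap the neck of each heavy chain, gave 1 lower call among 5 tested genes (6.1% of all tested genes). The slow and cardiac regulatory chain Myl2 was at 20.9 ± 5.99 FPKM untreated and 12.0 ± 2.34 FPKM with TWEAK (SD, n = 3 each, log2 fold change -0.73, limma adjusted p = 0.0369), with overlapping groups. With the trial as a replicate block 2 were called lower, Myl2 and Myl6b, which was at 441 ± 75.97 FPKM untreated and 350 ± 19.7 FPKM with TWEAK (SD, n = 3 each, limma adjusted p = 0.0189 in that fit and 0.113 without the block). The fit with the block called 12.5% of all tested genes lower. The Myl2 call was lost, in the fit without the block, without TWEAK library 2 (limma adjusted p = 0.124), TWEAK library 3 (0.0947), untreated library 1 (0.107) or untreated library 2 (0.129), and without the filter on low values (0.161). The abundant fast chains did not pass: Mylpf was at 5899.9 ± 194 and 5226 ± 474 FPKM (SD, n = 3 each, limma adjusted p = 0.414) and Myl1 at 2439 ± 109 and 2132 ± 246 FPKM (SD, n = 3 each, limma adjusted p = 0.304). The median log2 fold change of the 5 was -0.20.

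Thick filament and M-band partners included more called genes, 7 lower and 1 higher among 11 tested, with a median log2 fold change of -0.32. Of all tested genes 6.1% were called lower and 8.98% higher. Myom3, which links thick filaments at the M-band, fell from 59.0 ± 4.29 to 39.6 ± 4.40 FPKM (SD, n = 3 each, limma adjusted p = 0.00482). Myosin-binding protein Mybpc1 fell from 9.19 ± 0.214 to 6.30 ± 0.714 FPKM (SD, n = 3 each, limma adjusted p = 0.00619). Of the kinases of this list, Mylk4 fell from 16.9 to 12.1 FPKM (limma adjusted p = 0.00499), while Mylk2, which phosphorylates the regulatory light chain of skeletal muscle, rose from 15.7 ± 0.807 to 42.6 ± 7.05 FPKM (SD, n = 3 each, log2 fold change 1.37, limma adjusted p = 0.000115).

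Factors that fold myosin or remove it were read beside all tested genes, of which 6.1% were called lower and 8.98% higher. Of 7 tested genes for folding and assembly, 1 was called, the methyltransferase Smyd1, which acts in thick filament assembly. Smyd1 was at 68.0, 65.0 and 66.2 FPKM untreated and at 47.3, 41.1 and 45.7 FPKM with TWEAK (log2 fold change -0.56, limma adjusted p = 0.0013). Unc45b, the muscle myosin chaperone, was at 52.8 ± 2.35 and 42.4 ± 7.19 FPKM (SD, n = 3 each, limma adjusted p = 0.0899), and the block by trial gave a limma adjusted p of 0.00837. Of 6 ubiquitin ligases of the thick filament and atrophy, 2 were called higher, Trim63 and Fbxo32. Trim63 rose from 64.8 ± 2.59 to 125 ± 4.31 FPKM (SD, n = 3 each, limma adjusted p = 5.63e-05). Fbxo32 rose from 11.7 ± 1.07 to 18.2 ± 2.62 FPKM (SD, n = 3 each, limma adjusted p = 0.00798, and 0.0554 without the filter on low values). With the trial as a replicate block 1 ligase was called lower, Trim55, at 74.4 ± 3.84 FPKM untreated and 63.6 ± 5.45 FPKM with TWEAK (SD, n = 3 each, limma adjusted p = 0.0195 in that fit). The fit with the block called 12.5% of all tested genes lower.

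Of 23 tested regulators of myosin genes, 9 were called lower and 0 higher by limma, against 6.1% and 8.98% of all tested genes. Their median log2 fold change was -0.27. Limma-voom on recovered reads called 9 lower and 0 higher, against 908 and 1221 of 12770 tested genes. With the trial as a replicate block 13 were called lower, against 12.5% of tested genes. At an unadjusted p under 0.05 limma had 14 lower and 0 higher, without a share of all tested genes to set beside them. Vgll2, a cofactor of Tead factors, was at 8.72, 8.50 and 8.01 FPKM untreated and at 4.08, 2.54 and 2.99 FPKM with TWEAK (log2 fold change -1.18, SE 0.12, limma adjusted p = 0.000467). Each TWEAK value was under the lowest untreated value. Mef2c fell from 35.3 ± 4.76 to 20.1 ± 2.59 FPKM (SD, n = 3 each, limma adjusted p = 0.00336), and Nfatc4, a calcineurin-responsive factor, from 3.71 ± 0.156 to 2.26 ± 0.254 FPKM (SD, n = 3 each, limma adjusted p = 0.0046). Myog, the differentiation factor, was at 706 ± 94.6 and 826 ± 66.7 FPKM (SD, n = 3 each, limma adjusted p = 0.221).

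Fast and slow partner genes give the setting for the slow class. Of 8 tested fast fibre partners, such as the troponins Tnnt3, Tnni2 and Tnnc2, 0 were called by limma at adjusted p 0.05. At an unadjusted p under 0.05 limma had 1 lower, limma-voom on recovered reads called 0, and with the trial as a replicate block 1 was called higher and 2 lower. Of 8 tested slow fibre partners, 3 were called lower: Csrp3, Atp2a2 and the light chain Myl2 described above (6.1% of all tested genes were called lower). At an unadjusted p under 0.05 limma had 5 of the slow list lower, and limma-voom on recovered reads called 3 lower. With the trial as a replicate block 3 of the slow list were called lower. That fit called 12.5% of all tested genes lower and 1965 of 12770 higher. Csrp3, the muscle LIM protein, was at 35.2, 38.9 and 31.4 FPKM untreated and at 16.4, 13.4 and 15.8 FPKM with TWEAK (log2 fold change -1.16, SE 0.10, limma adjusted p = 0.000134). Atp2a2, a calcium pump, fell from 256 ± 2.59 to 182 ± 16.0 FPKM (SD, n = 3 each, limma adjusted p = 0.0049). The slow troponins did not pass, with limma adjusted p of 0.0972 for Tnnt1, 0.153 for Tnni1 and 0.946 for Tnnc1. Median log2 fold changes were -0.11 for the fast and -0.26 for the slow list, and the difference between the lists was not tested.

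Of the striated actins, on which the heavy chains pull, 1 of 2 was called lower, against 6.1% of all tested genes. The cardiac and developmental form Actc1 fell from 1034 ± 38.3 to 549 ± 78.03 FPKM (SD, n = 3 each, log2 fold change -0.92, limma adjusted p = 0.00131). The adult skeletal form Acta1 was at 4001 ± 257 and 3337 ± 150 FPKM (SD, n = 3 each, limma adjusted p = 0.182), with groups that did not overlap and within-trial folds of 1.24, 1.28 and 1.08. The difference between the 2 genes was not tested.

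**Figure D5:**
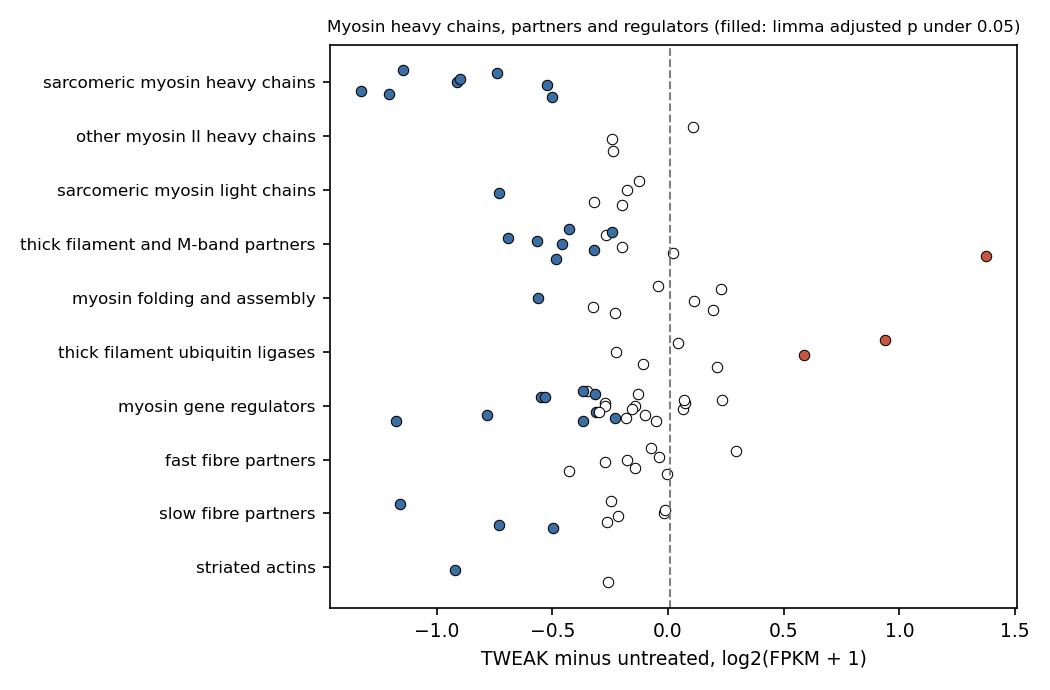
Difference in log2(FPKM + 1), TWEAK minus untreated, for every tested gene of the heavy chain family and of the partner and regulator lists; each point is a gene, filled blue where called lower and red where called higher by limma at adjusted p 0.05, and the dashed line is the median of all tested genes (0.01). All 8 heavy chains are filled blue between -1.33 and -0.50, and Mylk2, at 1.37, is the point farthest to the right.

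Cell type markers were read beside the family. The labels call the cells myoblasts, and genes of fused muscle cells were abundant in these libraries, with Acta1 at 4001 FPKM and Mylpf at 5899.9 FPKM in the untreated group. Of 6 myotube markers 1 was called lower and 0 higher, Ttn, which fell from 22.3 ± 3.12 to 13.7 ± 3.89 FPKM (SD, n = 3 each, limma adjusted p = 0.0301). The Ttn call was lost without TWEAK library 2 (limma adjusted p = 0.0806), untreated library 1 (0.0865) or untreated library 2 (0.115), and without the filter on low values (0.142). The myotube markers summed to 11253 to 12448 FPKM untreated and 10351 to 11462 FPKM with TWEAK, which overlap. Of 8 markers of undifferentiated myoblasts 3 were called higher and 4 lower, with sums of 76.6 to 94.5 and 74.4 to 94.97 FPKM. Of all tested genes 8.98% were called higher and 6.1% lower. Of the higher calls, that of Msc was lost in 5 of 6 fits that left out a library, all but the one without TWEAK library 3 (limma adjusted p of 0.0565 to 0.0794 in the 5). That of Ccnd1 was lost without TWEAK library 2 (0.0727), TWEAK library 3 (0.0536), untreated library 1 (0.063) or untreated library 3 (0.059). Without the filter on low values limma lost Ccnd1 (adjusted p = 0.125), Cd34 (0.0805) and, of the lower calls, Heyl (0.0528). Of 4 tested fibroblast markers 1 was called lower, Col1a1 (limma adjusted p = 0.00428), and of 2 tested smooth muscle markers 0 were called by limma, by limma-voom or at an unadjusted p under 0.05. The part of the myotube and myoblast markers in the heavy chain differences was not tested.

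For each member, the most similar patterns were sought among the 5843 genes whose mean reached 10 FPKM, by the root mean square difference of log2(FPKM + 1) over the 6 libraries after each gene's own mean was subtracted. The closest pair was Myh7 with Csrp3, at 0.0249, followed by Myh1 with the collagen gene Col5a1 at 0.0341. The nearest gene to Myh8 was Actc1 at 0.0561, to Myh3 Lrrc17 at 0.0565, to Myh2 Cmbl at 0.0660, to Myh7b Nptx1 at 0.0786 and to Myh6 Scx at 0.0887. For Myh4 the nearest was Sfrp2 at 0.236, the largest of these differences. This measure grows with a gene's spread, and Myh4 varied most between trials. The correlation of Myh4 over the 6 libraries was 0.945 with Sfrp2 and 0.978 with Mss51, also among its 3 nearest. For the other members and their nearest genes it ran from 0.973 (Myh2 with Cmbl) to 0.999 (Myh7 with Csrp3). Other members were themselves among the 3 nearest in 2 cases, Myh7 for Myh7b (0.140) and Myh8 for Myh6 (0.0906). These values describe 6 shared libraries and carry no test.

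Of the 8 members, 3 carry a microRNA gene in an intron on the same strand, and their mature sequences are shown because all 3 hosts fell, with the seed, bases 2 to 8, in capitals (RefSeq, GRCm38.p6).
mmu-miR-208a-3p: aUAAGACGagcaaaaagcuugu
mmu-miR-208b-3p: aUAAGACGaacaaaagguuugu
mmu-miR-499-5p: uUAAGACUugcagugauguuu
The first lies in Myh6 (chr14:54949072-54949093), the second in Myh7 (chr14:54975710-54975731) and the last in Myh7b (chr2:155622893-155622913). The first 2 share the seed UAAGACG, and the seed of the last is UAAGACU. Levels of these microRNAs were not analysed here.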

How the data were processed

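The deposited table gives FPKM per gene and library, per the file headers. The submitters' processing notes name DESeq2 1.22.2, HTSeq 0.6.1p2, STAR 2.6.0c and Trim Galore 0.5.0, and build GRCm39. Settings, annotation and strand were not given in the sources used here. Per the file headers, the authors' own comparison holds a mean normalized count (a signal), a log2 fold change with its SE, a score (the test statistic) and p-values.

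Whole reads were recovered from the FPKM for depth, with 29961496 to 34295102 reads in TWEAK and 33475712 to 40896892 in untreated libraries. All 126386 nonzero values gave whole numbers at a relative tolerance of 1e-06. The search over common denominators would let nearly any values pass, so this is no check of the reads. Of the genes, 601 were then scaled by a common factor and 132 to the authors' mean normalized count. For the 8 members the recovered gene length equalled a GENCODE transcript's length. Expression was compared with limma 3.58.1 (R 4.3.3) on log2(FPKM + 1) for genes averaging 0.5 FPKM or more, group as the only term, two-sided, with Benjamini-Hochberg adjustment over 12770 genes at 0.05; this scale understates the change of low genes. Folds are ratios of mean FPKM. The fit was run on simulated data whose residuals were independent between libraries. That setting leaves out the likeness within trials described below, so it does not show how the fit performs under it. Sums, shares and ratios were compared by exact permutation over libraries. Python 3.11.15, numpy 2.4.6, pandas 2.3.3 and matplotlib 3.10.9 did the rest, and transcripts were aligned with MAFFT 7.526. Promoter and microRNA sequences came from RefSeq (GRCm38.p6); promoters of 8 of 8 members and 3 of 3 microRNAs matched by name.

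The reported p-values are unpaired. The fit with the trial as a replicate block and the exact paired test were alternatives, since the data gave reason to pair libraries by trial: deviations from group means had correlations of 0.473, 0.218 and 0.434 within trials 1, 2 and 3. Between trials they were at most -0.02. Deviations cancel out within a group, so positive values within trials force those between trials to be negative on average. The values between trials are thus no further ground for pairing. The members and gene lists were chosen with earlier results of these data known. Named genes were all members, up to 3 called genes per list and direction by adjusted p, genes overlapping a member, and nearest patterns. Unc45b, Myog, Acta1, Myh14, Mylpf, Myl1, Myl6b, Trim55, the troponins and the uncalled marker genes were added after values were seen. Alternatives were another pseudocount, 2 other filters, rescaled libraries, limma-voom on recovered reads, the replicate block and leaving out each library.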

Additional observations from a re-analysis of the deposited data

How the results depend on the processing

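Over 49 genes, all of them called (the members, up to 3 called genes per list and direction, and the nearest patterns), and 12 alternatives, 547 of 586 values kept direction and side of the threshold, 39 lost the call and 0 reversed. Without the filter on low values limma called 801 genes (499 higher, 302 lower) and 4 members, and with the replicate block 3563 (1965 higher, 1598 lower), against 1926 (1147 higher, 779 lower); the block ended no member's call. Limma-voom on recovered reads called 2129 of 12770 tested genes (1221 higher, 908 lower) and 8 members. The share of all tested genes at an unadjusted p under 0.05 is not given here, so list counts at that threshold have no baseline. Leaving out single libraries gave 844 to 2101 called genes (501 to 1266 higher, 343 to 835 lower), lowest without TWEAK library 2, and 7 to 8 members. The embryonic share difference ranged from -2.14 to 1.73 percentage points, with its sign reversed without TWEAK library 2 (0.28), TWEAK library 3 (1.14) or untreated library 1 (1.73), and the fast to embryonic log2 ratio from -0.02 to 0.25, with its sign reversed without untreated library 1 (-0.0198). The fast share difference ranged from 0.82 to 4.91 percentage points. The slow share difference stayed between -2.04 and -1.88 percentage points, the slow to embryonic log2 ratio between -0.52 and -0.40, and the log2 family difference between -0.79 and -0.65. The cause of these shifts was not tested. With the exact paired test within trials (the replicate block for sums, shares and ratios) the family sum and the slow share had p = 0.25, the smallest 3 pairs allow. Members had at least 851 recovered reads in each library, and how far depth limits their values was not tested.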

Other observations

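Ratios of the summed heavy chain FPKM to its partners were read within each library, chosen after the values above were known. Heavy chain over the summed sarcomeric light chains was 0.214, 0.223 and 0.199 in untreated libraries 1, 2 and 3 and 0.160, 0.138 and 0.139 in TWEAK libraries. The groups did not overlap (means 0.212 ± 0.0122 and 0.145 ± 0.0123, SD, n = 3 each, exact permutation p = 0.1, the smallest possible). Light chain sums were 9289 ± 158 FPKM untreated and 8167 ± 745 FPKM with TWEAK (SD, n = 3 each). Over the striated actins the ratio was 0.391 ± 0.0128 untreated and 0.305 ± 0.0264 with TWEAK (SD, n = 3 each, exact permutation p = 0.1), also without overlap. Over Ttn (titin) it was 88.8 ± 6.74 and 91.8 ± 30.7 (SD, n = 3 each, exact permutation p = 1.0). Untreated libraries 1, 2 and 3 were at 84.2, 85.6 and 96.5. TWEAK libraries 1 and 2, at 70.9 and 77.5, lay below all of these, and TWEAK library 3, at 127, lay above them.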
